A study of Mus musculus with 12 samples.

Results

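A set of 9 transcription factors of the dorsal forebrain were followed across the 4 genotypes of the study: Emx1, Emx2, Lhx2, Lhx9, Pax6, Otx1, Dmrta2, Dmrt3 and Nr2f1. They were chosen by name, as genes known for patterning the dorsal telencephalon, with earlier results of these data known. Each was read from 1 probe set that carries its symbol and no other. These 9 genes are part of 19938 genes that had such a probe set and of 14195 that were bright enough to be tested, and all 9 were tested. Emx2 was the dimmest of them relative to its arrays, passing the brightness limit (the 40th percentile of an array, needed in at least 3 arrays) in 10 of 12 arrays, while the other 8 passed it in 12 of 12.

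RNA was taken on postnatal day 0 from mouse forebrain of 4 genotypes, with 3 biological replicates each, and hybridised to 12 Affymetrix arrays. GBS carried hGFAP-cre::Ctnnb1(ex3)Fl/+SmoM2Fl/+, GB carried hGFAP-cre::Ctnnb1(ex3)Fl/+ and GS carried hGFAP-cre::SmoM2Fl/+. Control carried Ctnnb1(ex3)Fl/+SmoM2Fl/+, so it held both floxed alleles without the Cre. Loss of exon 3 makes beta-catenin, the effector of WNT signalling, resistant to breakdown, and SmoM2 is a form of Smoothened that keeps the hedgehog pathway active. Radial glia of the fetal brain turn on the human GFAP promoter that drives the Cre, and RNA of cells that never expressed it is part of every sample. The GBS arrays are labelled as tumor and the others as forebrain, so genotype and the tissue sampled cannot be told apart. The labels do not say whether the replicates of a genotype came from different litters.

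The dorsal telencephalon, or pallium, gives rise to the neocortex and hippocampus. Its progenitors express these factors in opposing gradients, some highest near the midline, where the cortical hem releases WNT and BMP signals, and others highest at the opposite, lateral and rostral end. Together they keep pallial cells from taking a ventral or hem fate and set the position of cortical areas, and GLI3, a repressor of hedgehog target genes, is needed for the hippocampus to form.

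The 9 factors did not move as one group. In GBS against Control, Emx2, Lhx9 and Pax6 rose by 3.68, 3.79 and 2.78-fold, and Lhx2 rose by 1.49-fold. Emx1, Otx1, Dmrta2, Dmrt3 and Nr2f1 did not pass the test, with log2 differences between -0.24 and 0.44. In GB or GS against Control no factor passed it.

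By limma with Benjamini-Hochberg adjustment over all genes tested and a limit of 0.05, 4 of 9 factors were higher in GBS than in Control and 0 were lower. Of all genes, 11.0% were higher and 4.35% lower in that comparison. The median log2 difference was 0.44 over the 9 factors and -0.10 over all genes. The value of 0.44 is that of Nr2f1, which was not called and whose sign turned with the receptor-gene covariate described below. In 5 factors every GBS array lay above every Control array, which held for 28.8% of all genes, and in 1 factor every GBS array lay below, which held for 35.7%. When the level of 1190 olfactory and vomeronasal receptor genes, which are dim on these arrays, was added as a covariate, the split over all genes turned from 1556 higher and 617 lower to 789 higher and 1046 lower. These totals also moved with single arrays: they were 631 and 78 without GBS replicate 2, 802 and 114 without Control replicate 1, 910 and 167 without Control replicate 2, 661 and 133 without Control replicate 3, and 3268 and 2865 without GB replicate 2. The lower total was 371 without GS replicate 2 and 344 without GBS replicate 3. The median of the receptor genes ran from 4.84 to 4.92 on GBS arrays and from 5.12 to 5.23 on Control arrays, without overlap. The receptor-gene covariate is therefore partly confounded with genotype.

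Against GS, 3 of 9 factors were higher in GBS and 0 lower, beside 3.56% and 1.51% of all genes. The same count was found against GB, 3 higher and 0 lower, beside 9.60% and 3.12% of all genes. GBS arrays lay wholly above the GS arrays in 5 factors, beside 16.5% of all genes. They lay wholly above the GB arrays in 4 factors and wholly below in 1, beside 24.2% and 23.7%. With 1 array left out, the total of genes higher in GBS ran from 247 (without GS replicate 2) to 1100 (without GB replicate 2) against GS, beside 505 with all arrays, and from 396 (without GBS replicate 2) to 2199 (without GB replicate 3) against GB, beside 1363. These comparisons share the GBS arrays, and those against Control share the Control arrays, so they are not independent of each other.

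No factor was called in GS against Control, beside 0.0211% of all genes, in GB against Control, beside 0% of all genes, or in GS against GB, beside 0.0141%. At an unadjusted limma p under 0.05 the counts were 0, 2 and 2 factors, and 839, 156 and 1115 genes over the whole table. The arrays of GS lay above those of Control in 3 factors (8.09% of all genes), those of GB above Control in 2 (3.01%), and those of GS below GB in 2 (5.11%). An F test over the 4 genotypes called 3 factors, Emx2, Lhx9 and Pax6, beside 6.88% of all genes (976 genes, and from 349 without GBS replicate 2 to 2538 without GB replicate 2).

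Some arrays stood apart within their genotype. GB replicate 2 had a mean log2 level of 8.05 over 10 genes of postmitotic neurons, below 9.33 and 9.45 in the other GB arrays. GS replicate 3 (8.94) and Control replicate 3 (9.12) were the lowest of their genotypes, with smaller gaps. GBS replicate 2 was the lowest GBS array on the same list, at 8.31 against 8.70 and 9.09, and the highest for 9 genes of dividing cells, at 9.11 against 8.50 and 8.19. Without GB replicate 2, GS replicate 3 and Control replicate 3 together, the count higher in GBS than in Control was again 4, beside 3331 of all genes. Without GBS replicate 2 it was 3, beside 631 of all genes, with Lhx2 no longer called (limma adjusted p = 0.181). The total with all arrays was 1556 genes.

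**Figure D1:**
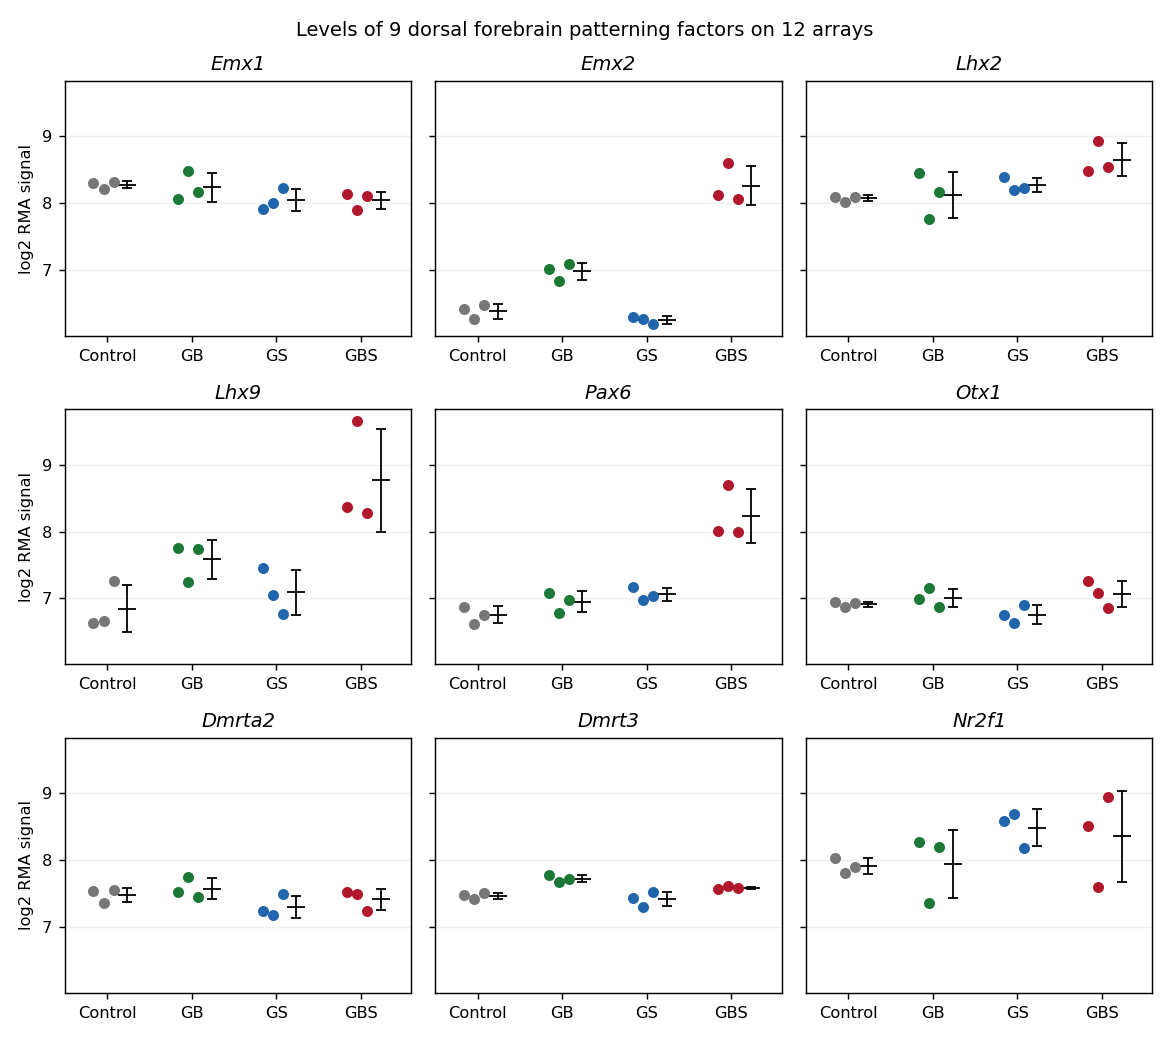
Log2 RMA signal (vertical axis) of each of the 9 factors on the 12 arrays, 1 point per array, with Control in grey, GB in green, GS in blue and GBS in red; the bar and whiskers beside the points are the mean and SD of 3 arrays. The GBS points stand above all others for Emx2, Lhx9 and Pax6, GB lies between Control and GBS for Emx2, and the genotypes overlap for Otx1 and Dmrta2, and for Nr2f1 apart from GS and Control; levels of different genes come from different probes and are not comparable.

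Emx2 and its relative Emx1 are homeobox genes of the pallium, homologues of the fly gene empty spiracles. Emx2 is highest in caudal and medial progenitors, where it sets area position and supports growth of the hippocampus, and Emx1 marks nearly the whole pallial lineage, in progenitors and in the excitatory neurons they form. Their regions around the start of transcription are shown because the pair split most clearly in these data. The sequences run from 250 bases before to 50 bases after the start in RefSeq on GRCm38.p6, both on the plus strand, Emx2 at chr19:59458440-59458739 and Emx1 at chr6:85187681-85187980. Capitals mark TAATTA, a core recognised by LIM-homeodomain and related proteins, which was searched on both strands.
Emx2: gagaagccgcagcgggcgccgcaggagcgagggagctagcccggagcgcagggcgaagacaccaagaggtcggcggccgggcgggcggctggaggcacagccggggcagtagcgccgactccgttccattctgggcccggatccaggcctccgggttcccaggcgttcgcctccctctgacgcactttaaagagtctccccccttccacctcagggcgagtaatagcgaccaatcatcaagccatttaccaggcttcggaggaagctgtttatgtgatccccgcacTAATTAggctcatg
Emx1: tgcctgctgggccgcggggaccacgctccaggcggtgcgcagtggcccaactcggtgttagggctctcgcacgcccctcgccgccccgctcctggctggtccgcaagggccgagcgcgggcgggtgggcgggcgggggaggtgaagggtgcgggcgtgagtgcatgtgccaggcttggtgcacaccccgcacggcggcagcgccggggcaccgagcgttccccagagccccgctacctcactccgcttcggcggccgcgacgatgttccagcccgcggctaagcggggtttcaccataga
The capitals of Emx2 lie 37 to 42 bases after the start. TAATTA occurred in 1 of 11 windows of the factors, the one of Emx2, and in 5.29% of 32851 mouse windows of this length.

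Emx2 read 6.42, 6.26 and 6.47 on the Control arrays. In GS it read 6.30, 6.27 and 6.18, and in GB 7.01, 6.84 and 7.08. In GBS it reached 8.12, 8.60 and 8.07. The GBS arrays lay above every other array, the GB arrays lay between them and the rest without touching either, and GS and Control overlapped. The genotype means were 6.25 ± 0.06 in GS, 6.38 ± 0.11 in Control, 6.98 ± 0.13 in GB and 8.26 ± 0.29 in GBS (SD, n = 3 each).

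Emx2 rose in GBS by 1.88 ± 0.14 (SE) on the log2 scale against Control, with a limma adjusted p of 2.94e-05. The rise was 2.01 against GS, or 4.03-fold (adjusted p = 2.74e-05), and 1.28 against GB, or 2.43-fold (adjusted p = 0.000601). These 3 calls held in all 24 alternatives tried. GB exceeded Control by 0.60 (95% interval 0.30 to 0.90) in 3 of 3 arrays, with an unadjusted limma p of 0.00113 that gave an adjusted p of 1. Among all genes this was the 10th smallest p in that comparison, where no gene was called. GS differed from Control by -0.13 (-0.43 to 0.17, adjusted p = 0.675), and GS was lower than GB by an amount (-0.73, adjusted p = 0.294) that did not pass the test.

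The measured differences of Emx2 did not add up on the log2 scale, and in GBS genotype and the tissue sampled cannot be told apart. Emx2 was dim in Control and GS, at percentiles 38.95 to 44.02 and 35.45 to 42.61 of its arrays, around the brightness limit. What this dimness contributed was not tested. The GB and GS differences from Control, added together, give an expected GBS level of 6.85, against 8.26 measured. The excess of 1.41 ± 0.19 (SE) had a limma adjusted p of 0.0125 in the interaction test, which called 1 of 9 factors beside 0.324% of all genes (46 genes, and from 14 without GS replicate 2 to 56 without GB replicate 2). The call was lost without Control replicate 1 (adjusted p = 0.0594), Control replicate 3 (0.0580) or GS replicate 2 (0.0538) and with the replicate number as a block (0.0721), and the excess itself ranged from 1.24 to 1.51 over 23 alternatives. Lhx9 and Pax6 exceeded their added levels by 0.94 (adjusted p = 0.679) and 0.97 (adjusted p = 0.214), neither past the test. For the other 6 factors the excess lay between -0.16 and 0.33.

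Emx1 went another way. It read 8.30, 8.21 and 8.32 in Control, and 8.13, 7.90 and 8.10 in GBS. GS arrays were at 7.92, 7.99 and 8.22, and GB arrays at 8.07, 8.48 and 8.16. Every GBS array lay below every Control array, while GS and GB overlapped with Control. The difference of GBS from Control was -0.24 (95% interval -0.51 to 0.04, adjusted p = 0.170), and it was not called. With the receptor-gene covariate the difference was 0.062 (adjusted p = 0.753), so its direction depended on this choice.

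The Emx2 change from Control to GBS exceeded the Emx1 change by 2.12 on the log2 scale. Taken within each array, the Emx2 minus Emx1 difference in GBS did not overlap with Control (exact permutation test, two-sided, p = 0.1, the smallest that 20 permutations of 3 against 3 allow). Lhx9 against Lhx2 gave an excess of 1.34, and Dmrta1, a relative named below, against Dmrta2 gave 1.07. Each had the same exact permutation p of 0.1, and 0.1 after adjustment over the 3 pairs. Since no pair could have given a smaller p, this test cannot decide whether the genes of a pair diverged. Emx2, Lhx9 and Dmrta1 were also each called higher in GBS than in Control on these same arrays. The excesses are therefore given as descriptions of size only.

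Lhx2 and Lhx9 are close relatives of the LIM-homeodomain family. Lhx2 acts as a selector of cortical identity, without which medial pallium turns into hem, and Lhx9 is known from the early cortical marginal zone, the diencephalon and the amygdala. The Lhx9 start region is shown because it was the window with the most matches to a TCF/LEF motif, the DNA element bound by the partners of beta-catenin. It lies on the minus strand of GRCm38.p6 at chr1:138842395-138842694 in RefSeq, and capitals mark the form CTTTGTA and, nearer to the start, the form CTTTGTT.
Lhx9: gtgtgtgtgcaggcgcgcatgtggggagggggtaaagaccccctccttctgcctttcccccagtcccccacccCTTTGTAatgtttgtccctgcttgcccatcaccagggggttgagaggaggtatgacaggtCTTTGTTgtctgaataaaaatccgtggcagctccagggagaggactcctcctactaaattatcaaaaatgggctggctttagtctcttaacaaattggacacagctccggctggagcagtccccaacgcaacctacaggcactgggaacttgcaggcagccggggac
The matches lie at -177 to -171 and at -117 to -111 from the start. The search took CTTTG followed by A or T at both of the next positions, on both strands, and such forms occurred in 2 of 11 windows of the factors, one of Lhx9 and one of Nr2f1, and in 16.9% of all windows. The GLI form TGGGTGGTC, bound by the effectors of hedgehog signalling, was in 0 of 11 windows and in 0.253% of all, and the palindromic site of paired-type homeodomains in 0 of 11 and 0.487%. Of the 9 factors, 8 had a window in the table used, and Otx1 is not among them. These matches describe letters in a short window and say nothing of binding.

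Lhx9 read 6.63, 6.66 and 7.26 in Control and 7.45, 7.05 and 6.77 in GS. GB arrays were at 7.76, 7.25 and 7.74, and GBS arrays at 8.37, 9.65 and 8.28. The GBS arrays lay above all others, with replicate 2 more than a log2 unit above the rest. GS shared much of its range with Control, and GB overlapped with both at its lower end. The means were 6.85 ± 0.35 in Control, 7.09 ± 0.34 in GS, 7.58 ± 0.29 in GB and 8.77 ± 0.77 in GBS (SD, n = 3 each).

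Lhx9 rose in GBS by 1.92 ± 0.34 (SE) against Control, with a limma adjusted p of 0.00531, and this call held in all 24 alternatives, with an adjusted p of 0.0414 at most. Without GBS replicate 2 the rise was 1.48 (adjusted p = 0.00909). Against GS the rise was 1.68, or 3.20-fold (adjusted p = 0.0178), and it was lost without GS replicate 2 or GS replicate 3 (adjusted p up to 0.0736) and with the replicate number as a block (0.0553). Against GB it was 1.18, or 2.27-fold (adjusted p = 0.0463), a call kept in 9 of 24 alternatives and lost when any array other than GB replicate 3, GS replicate 3 or GBS replicate 3 was left out. GB exceeded Control by 0.74 (95% interval -0.02 to 1.49, adjusted p = 1), with arrays that overlapped.

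Lhx2 read 8.10, 8.02 and 8.10 in Control and 8.48, 8.93 and 8.54 in GBS. GS arrays were at 8.40, 8.19 and 8.22, and GB arrays at 8.45, 7.76 and 8.16. Each GBS array was above each array of the other genotypes, GS lay between Control and GBS without overlap, and GB spread across both Control and GS. Lhx2 rose in GBS by 0.58 ± 0.17 (SE) against Control, with a limma adjusted p of 0.0418. This call is the least stable of the 4, since it held in 12 of 24 alternatives (adjusted p up to 0.377). It was lost when any Control array, GB replicate 3, GS replicate 1, GS replicate 2, GBS replicate 2 or GBS replicate 3 was left out, and with quantile normalization, limma's trended and robust variance, the replicate block (adjusted p = 0.0806) or the receptor-gene covariate. Against GB the difference was 0.53 (adjusted p = 0.0602) and against GS 0.38 (adjusted p = 0.255).

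Pax6, a paired-box homeodomain factor, drives neurogenesis in cortical radial glia and is highest at the rostral and lateral end of the pallium, opposite to Emx2. It read 6.88, 6.62 and 6.76 in Control, and 7.09, 6.78 and 6.98 in GB. GS arrays were at 7.17, 6.98 and 7.04, and GBS arrays at 8.002, 8.70 and 7.99. The GBS arrays stood clear of all others, and the GS arrays lay just above Control and overlapped with GB.

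Pax6 rose in GBS by 1.48 ± 0.18 (SE) against Control, with a limma adjusted p of 0.000543, and the call held in all 24 alternatives. Against GS it rose by 1.17, or 2.25-fold (adjusted p = 0.00386), again in all 24. Against GB it rose by 1.28, or 2.43-fold (adjusted p = 0.00215), in 23 of 24, the exception being a fit of those arrays alone (adjusted p = 0.0654). GS exceeded Control by 0.31 (95% interval -0.08 to 0.70) and GB by 0.20 (-0.19 to 0.58), neither past the test. So Emx2 and Pax6, whose normal gradients run in opposite directions, were both higher in the GBS samples.

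**Figure D2:**
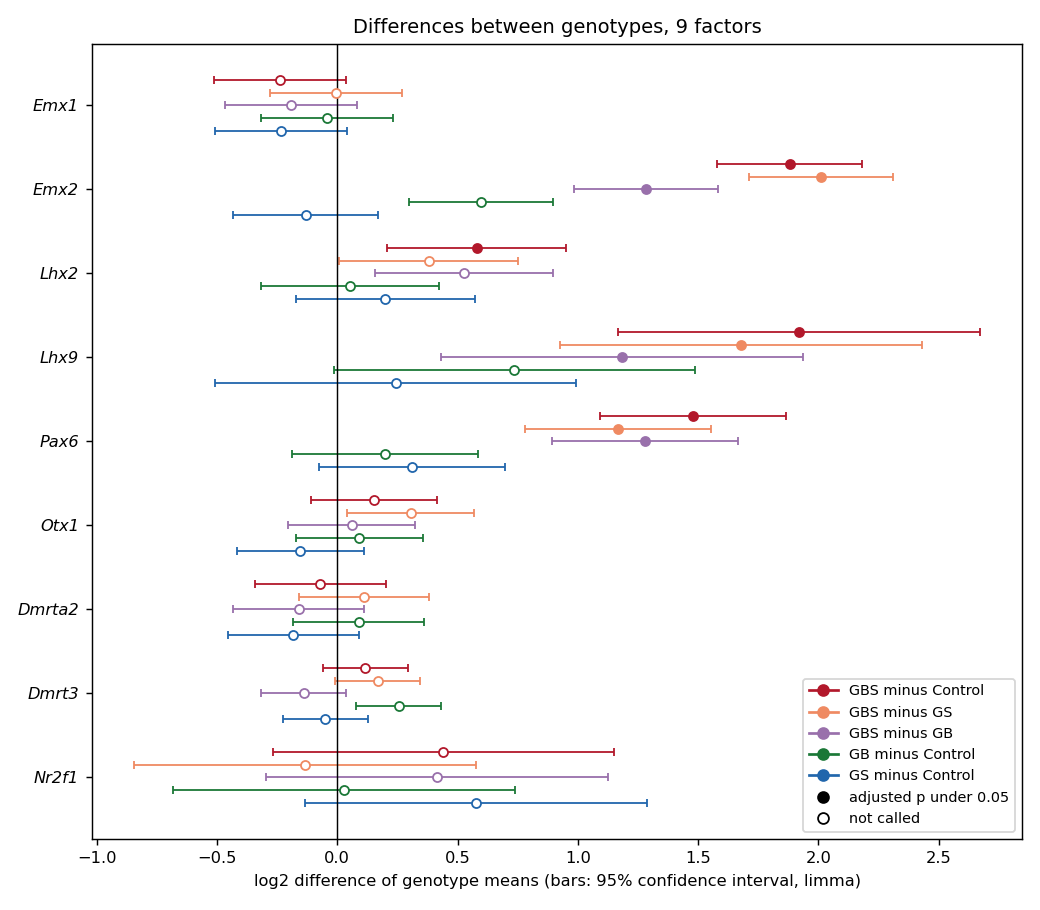
Log2 difference between genotype means (horizontal axis) for each factor, with GBS minus Control in dark red, GBS minus GS in orange, GBS minus GB in purple, GB minus Control in green and GS minus Control in blue; bars are 95% confidence intervals of the limma fit and filled points have an adjusted p under 0.05. Emx2, Lhx9 and Pax6 have filled points in the 3 comparisons of GBS, Lhx2 has 1, and the other 5 factors have none; the interval of Nr2f1 is the widest beside that of Lhx9.

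Otx1, an orthodenticle-type homeobox gene of cortical progenitors and deep-layer neurons, read 6.94, 6.87 and 6.93 in Control and 7.25, 7.08 and 6.85 in GBS. GS arrays were at 6.75, 6.63 and 6.90, and GB arrays at 6.99, 7.15 and 6.87. The GBS arrays overlapped with every other genotype. GBS differed from Control by 0.15 (95% interval -0.11 to 0.42, adjusted p = 0.319), so a rise of the size seen in Pax6 lies outside the interval. Against GS the difference was 0.31 (0.04 to 0.57, adjusted p = 0.191).

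Dmrta2 and Dmrt3 carry the zinc-finger DNA-binding domain first known from doublesex and mab-3, are highest in the caudal and medial pallium, as Emx2 is, and hold back ventral fates there. Dmrta2 read 7.53, 7.36 and 7.56 in Control and 7.52, 7.49 and 7.23 in GBS. GB arrays were at 7.51, 7.75 and 7.45, and GS arrays at 7.24, 7.17 and 7.49. All 4 genotypes overlapped, and GBS differed from Control by -0.07 (95% interval -0.34 to 0.20, adjusted p = 0.647), a sign that turned without GBS replicate 3, with arrays centred on their medians and with the receptor-gene covariate.

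Dmrt3 had the smallest spread over the 12 arrays of the 9 factors. It read 7.48, 7.42 and 7.51 in Control and 7.57, 7.60 and 7.58 in GBS. GB arrays were at 7.77, 7.68 and 7.72, above all others, and GS arrays at 7.43, 7.30 and 7.52. The GBS arrays therefore lay between Control and GB without overlap. The difference of GBS from Control was 0.12 (95% interval -0.06 to 0.29, adjusted p = 0.263). That of GB from Control was 0.26 (0.08 to 0.43) with an unadjusted limma p of 0.00878 and an adjusted p of 1, and GS was below GB by 0.31 in the means (adjusted p = 0.486). Emx2 and Dmrt3 are the 2 factors with an unadjusted p under 0.05 in GB against Control, both higher in 3 of 3 arrays, and the same 2 in GS against GB, both lower.

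Nr2f1, the orphan nuclear receptor COUP-TFI, is highest in the caudal and lateral pallium and is also expressed in cortical neurons and in interneurons of the caudal ganglionic eminence. It read 8.04, 7.81 and 7.89 in Control, and 8.58, 8.70 and 8.18 in GS. GB arrays were at 8.27, 7.35 and 8.19, and GBS arrays at 8.51, 7.60 and 8.94. GS lay wholly above Control, and the GB and GBS arrays each ran from below Control to above it, with replicate 2 the low array in both. GBS differed from Control by 0.44 (95% interval -0.27 to 1.15, adjusted p = 0.288) and GS by 0.58 (-0.14 to 1.29, adjusted p = 0.645). The difference of GBS from Control was -0.023 with the receptor-gene covariate.

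Within GBS, replicate 2 was the highest array for Emx2, Lhx2, Lhx9 and Pax6, the 4 factors called in GBS, and the lowest for Emx1 and Nr2f1. It was also the highest GBS array for genes of dividing cells and the lowest for genes of postmitotic neurons and of cortical interneurons (6.94 against 7.48 and 7.60). In bulk tissue, more cells of a type and more RNA per cell cannot be told apart.

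Some cell type markers moved with the genotype as well. The counts that follow stand beside 11.0% of all genes higher and 4.35% lower in GBS than in Control. Of 9 tested genes of dividing cells, 8 were higher in GBS than in Control, with a median of 2.29. Their mean level ran from 8.19 to 9.11 in GBS, 7.10 to 7.50 in GS, 6.53 to 6.89 in GB and 6.601 to 6.77 in Control. Of 9 tested genes of radial glia and neural stem cells, 5 were higher (Prom1, Vim, Slc1a3, Gli3 and Sox2) and 1 was lower (Fabp7). Sox2 was called in 18 of 24 alternatives, and Fabp7 in 23 of 24, the exception being without GBS replicate 2. The mean level of the list's 10 genes, with Nes, which was too dim to be tested, ran from 7.75 to 8.08 in GBS, from 7.91 to 8.09 in GS and from 7.59 to 7.75 in Control. Of 10 genes of postmitotic neurons 2 were lower, Gap43 and Mapt, with a median of -0.56 (0 lower without any one of the Control arrays or GBS replicate 2, and 5 without GB replicate 2). Their mean level ran from 8.31 to 9.09 in GBS and from 9.12 to 9.47 in Control. Of 4 tested genes of meninges and fibroblasts 1 was higher, Dcn (by 3.79), while the collagen genes Col3a1, Col1a2 and Col1a1 differed by -0.24 to -0.19 without passing the test, so that the median was -0.21. Of 6 tested genes of the choroid plexus 1 was higher, Clic6 (by 2.38), with a median of -0.24 and a difference of -1.53 for Ttr that did not pass the test. Of 8 genes of cortical interneurons 3 were lower, Npy, Dlx5 and Dlx1, and of 6 of the oligodendrocyte lineage 2 were lower, Olig1 and Olig2. Each of these calls was lost without GBS replicate 2. Of 5 tested genes of astrocytes 1 was higher, Gja1, and 1 was lower, Aqp4. The part of these shifts in the rises of Emx2, Lhx9, Pax6 and Lhx2 was not tested. Of 6 midbrain and hindbrain genes with a probe set, 3 were too dim to be tested, namely En2, Hoxa2 and Hoxa3, and of the other 3 none was called. The forebrain label could be checked on Emx1 and Lhx2, which were above the brightness limit on all 12 arrays.

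The genes with the closest profile to each factor were found as those with the smallest root mean square (RMS) difference of log2 values, each centred on its own mean, over the 12 arrays. For Emx2 they were Nkd1 at 0.10, Axin2 at 0.14 and Gadd45a at 0.17, against an RMS spread of 0.81 for Emx2 itself. Nkd1 and Axin2 are feedback inhibitors of WNT signalling that beta-catenin switches on, and Gadd45a is a stress-response gene. Like Emx2, each was highest in GBS, with log2 differences from Control of 1.83, 1.78 and 1.995, and intermediate in GB, at 0.57, 0.73 and 0.51. Their levels in GBS exceeded those expected from adding the GB and GS differences from Control by 1.46 for Nkd1, 1.01 for Axin2 and 1.46 for Gadd45a. These values describe genes chosen for their likeness to Emx2 and were not used as tests. The closest other factor was Lhx9, at 0.30.

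For Lhx9, with a spread of 0.84, the closest genes were Zic1 at 0.21, a zinc-finger gene of the medial telencephalon and meninges, Cd63 at 0.27 and Grk3 at 0.28. For Pax6, with a spread of 0.61, they were Ddias at 0.10, Prex2 at 0.12 and Spc25 at 0.15, the last a kinetochore subunit used in mitosis. Lhx2 was closest to Cep43, Wdr33 and Rsbn1l, at 0.08 to 0.10 with a spread of 0.29. Nr2f1 was closest to Neurod1, a transcription factor of young neurons, at 0.15 with a spread of 0.45. The difference of GS from Control was 0.79 for Neurod1 and 0.58 for Nr2f1.

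The other 4 factors had spreads of 0.13 to 0.16, so closeness to them says little beyond a flat profile. The genes nearest to them were Prom2, Wt1 and Col19a1 for Emx1, Fbxl14, Col11a1 and Rad54l for Otx1, Tesc, Cited1 and Zfp703 for Dmrta2, and Anapc7, Ankfn1 and Pex5l for Dmrt3.

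**Figure D3:**
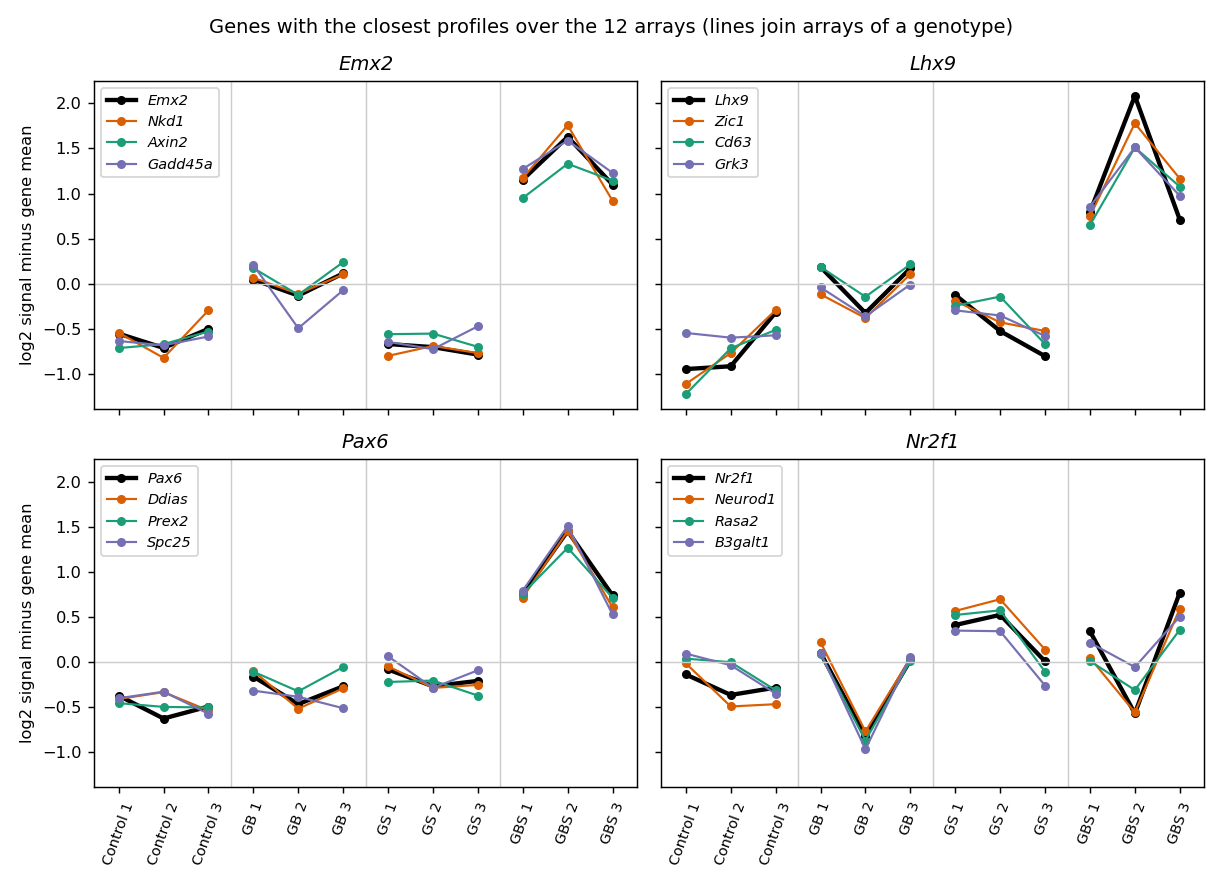
Log2 signal minus the gene's own mean (vertical axis) on the 12 arrays (horizontal axis) for Emx2, Lhx9, Pax6 and Nr2f1 in black and the 3 genes with the closest profile to each in colour; lines join the arrays of a genotype for reading and carry no order. Emx2, Nkd1 and Axin2 share the step from Control to GB to GBS, Pax6 and its neighbours are high in GBS with a peak at replicate 2, and Nr2f1 and Neurod1 share the low GB and GBS replicate 2.

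The counts of the lists that follow stand beside 11.0% of all genes higher and 4.35% lower in GBS than in Control. Close relatives of the factors were examined as well, from a list of 24 family members of which 21 were tested. One rose in GBS, Dmrta1, and 1 fell, Isl1, with a median of -0.24 (0 fell when any Control array, GB replicate 1, GS replicate 3, GBS replicate 2 or GBS replicate 3 was left out, 5 fell without GB replicate 2 and 2 without GBS replicate 1). Dmrta1 is a paralog of Dmrta2 that pallial progenitors also express. Its arrays read 6.06, 6.20 and 6.23 in Control and 6.63, 7.54 and 7.31 in GBS. All Control and GS arrays lay below the brightness limit, and Dmrta1 was bright enough to be tested only with its GBS arrays counted. What this dimness contributed to its rise was not tested. The rise of 0.997 ± 0.196 (SE), or 1.996-fold, had a limma adjusted p of 0.00863 and held in all 23 alternatives in which it could be tested. It also rose against GS by 1.01 (adjusted p = 0.0146), a call lost without GS replicate 1, GS replicate 2 or GBS replicate 2. Otx2, relative of Otx1, differed from Control by -0.16, Nr2f2 and Nr2f6, relatives of Nr2f1, by 0.28 and -0.24, and Lhx1 by -0.22, none past the test. Lhx5 was too dim to be tested.

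Of 18 tested regulators of pallial progenitors, 4 rose in GBS against Control and 0 fell, with a median of 0.10. Gli3 read 6.56, 6.47 and 6.61 in Control and 7.29, 7.43 and 7.19 in GBS, with no overlap. GB arrays were at 6.75, 6.68 and 6.72, and GS arrays at 6.46, 6.36 and 6.68. Its rise of 0.76 ± 0.10 (SE), or 1.69-fold, had a limma adjusted p of 0.00113 and held in all 24 alternatives. Neurog2, a proneural factor of pallial progenitors, rose by 0.92 (adjusted p = 0.00321), also in all 24. Zbtb20, which specifies hippocampal neurons, rose by 1.46 (adjusted p = 0.0166), and Sox2, a stem cell factor, by 0.56 (adjusted p = 0.0218). These calls held in 21 and 18 of 24 alternatives. The count of 4 became 2 without Control replicate 3 or without GBS replicate 2, and 2 genes were lower without GB replicate 2.

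The signals of the medial source of patterning were mixed. Of 17 tested genes of the cortical hem and roof plate, 5 rose in GBS and 1 fell, with a median of -0.20. Bmp4, a BMP ligand, rose by 1.66, or 3.17-fold (adjusted p = 0.00017), and Wnt5a, a WNT ligand, by 1.499, or 2.83-fold (adjusted p = 0.000755), both in all 24 alternatives. Bmp7, Id3 and Rspo3 rose by 0.50 to 0.73, and Rspo2, an R-spondin like Rspo3, fell by 0.50. The count of 5 became 3 without Control replicate 1, GS replicate 2 or GBS replicate 3 and 2 without Control replicate 2, Control replicate 3 or GBS replicate 2. The count of 1 became 0 without Control replicate 3 or GBS replicate 2 and 6 without GB replicate 2. Of 15 genes of the antihem and the rostral FGF source 0 were called, with a median of -0.12 (1 higher and 2 lower without GB replicate 2).

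Of 9 tested factors of the hippocampal fields, 3 rose, with a median of 0.12. This list includes Dmrt3, which is also among the factors followed here, and the median is its value. Prox1, which specifies dentate granule neurons, rose by 2.35, or 5.08-fold (adjusted p = 0.000264), and Lef1, a DNA-binding partner of beta-catenin needed for the hippocampus, by 2.27, or 4.81-fold (adjusted p = 3.34e-05). Both rises held in all 24 alternatives, and the third gene was Zbtb20. Prox1 and Lef1 were also the 2 that rose among 14 tested factors of the thalamus and diencephalon, where 1 fell, Irx5, with a median of -0.21. Irx5 was no longer called without any one of the Control arrays, GB replicate 3, GS replicate 1, GS replicate 2, GBS replicate 2 or GBS replicate 3, and the count lower was 2 without GB replicate 2.

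Among factors of ventral and of later cells, most of those called were lower in GBS. Of 17 tested subpallial factors 0 rose and 5 fell, namely Olig2, Dlx6, Dlx5, Dlx1 and Isl1, by 0.46 to 0.91, with a median of -0.33. The count of 5 was 0 without Control replicate 1 or GBS replicate 2, 1 without Control replicate 2 or Control replicate 3, 2 without GBS replicate 3, 3 without GB replicate 1 or GS replicate 2, and 11 without GB replicate 2. Of 14 tested factors of pallial neurons after their last division 6 fell and 3 rose, with a median of -0.42. Those that fell were Foxp2, Bcl11b, Neurod2, Foxp1, Tbr1 and Neurod6, and those that rose were Nfia (by 1.54), Nfib and Cux1, which radial glia or progenitors also use. The count of 6 was 0 without Control replicate 2, Control replicate 3 or GBS replicate 2, 2 without Control replicate 1 and 3 without GBS replicate 1 or GBS replicate 3. The count of 3 was 1 when Control replicate 1, Control replicate 3 or any GBS array was left out. The median of all genes tested was -0.10, and dim genes lay lower: the median of the receptor genes ran from 4.84 to 4.92 on GBS arrays and from 5.12 to 5.23 on Control arrays. In GS and GB against Control 0 genes of these 8 lists were called.

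**Figure D4:**
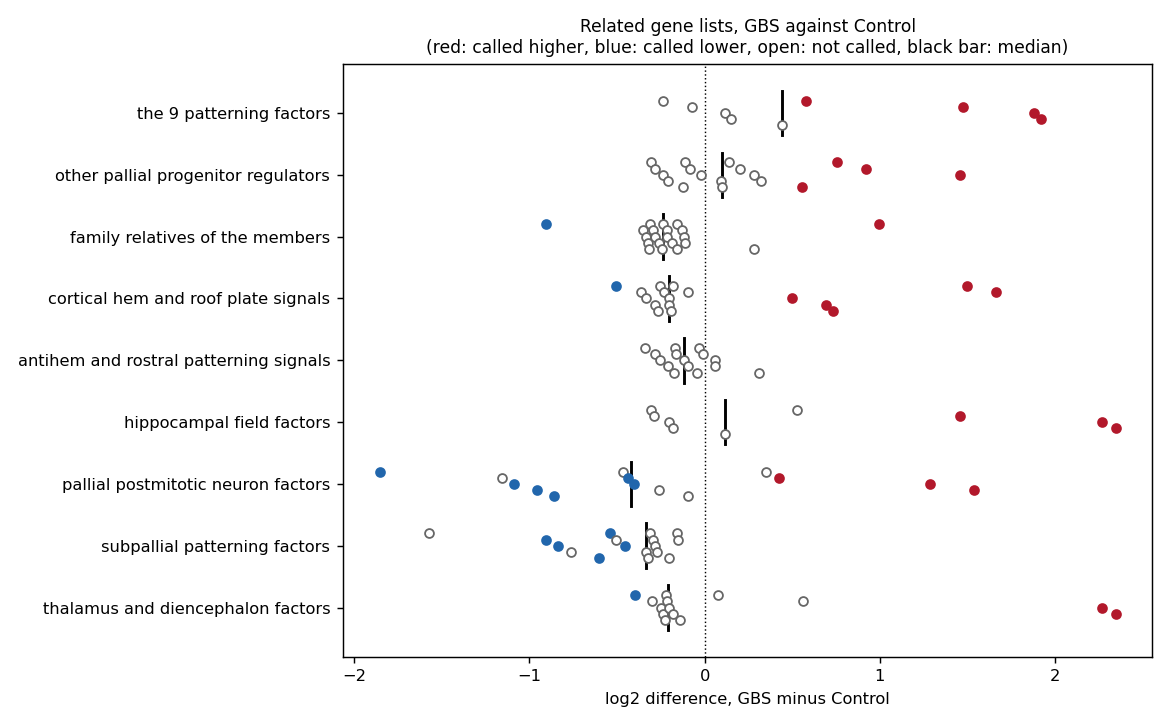
Log2 difference of GBS from Control (horizontal axis) for the 9 factors and for 8 related gene lists, 1 point per tested gene, red where called higher, blue where called lower and open where not called, with a black bar at the median; the vertical offset within a list only separates points. The 9 factors have the highest median of the groups drawn, 0.44, which is the value of Nr2f1, a factor not called. The lists of pallial neurons and subpallial factors have the lowest, -0.42 and -0.33. Lef1, Prox1, Zbtb20, Isl1 and a few others are drawn in 2 lists, and Dmrt3 is drawn among the 9 factors and the hippocampal field factors.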

How the data were processed

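Gene expression was measured in P0 forebrain, or tumor, of 4 genotypes with 3 arrays each. Per the submitters' processing notes, the authors made the deposited values by RMA in Affymetrix Expression Console, and the table's range, 2.82 to 13.8, was read as a log2 scale. For software versions, library files and genome build, the sources used here give nothing. Array medians ran from 6.52 to 6.69, no further normalization was applied, and the number of arrays limits the precision. No array was a copy of another.

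Probe sets were named through GEO's platform annotation, with symbols updated by RefSeq. For each gene the probe set with 1 symbol and the highest mean was kept (each of the 9 factors had 1), and a gene was tested when 3 or more of the 12 arrays placed it above their 40th percentile. The 12 arrays entered one limma 3.58.1 model (lmFit, eBayes, R 4.3.3) with a coefficient for each genotype. It had 8 residual and 2.9 prior degrees of freedom. P-values are two-sided, and every adjusted p is Benjamini-Hochberg over all 14195 genes of that comparison. The script was tested on simulated data.

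Intervals are 95% intervals of the fit. The factors and lists were chosen with earlier results of these data known. All 9 factors are named, of each list up to 6 called genes with the lowest adjusted p, 7 close relatives whatever their values, and the 3 genes with the closest profile to each factor. The alternatives changed the filter, the probe set rule, the normalization, limma's settings, the samples fitted and the threshold, or left out arrays. Array weights were estimated gene by gene, since the default estimate did not converge. Protein sequences were not used here.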

Additional observations from a re-analysis of the deposited data

Results flagged for a closer look

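The Emx2 difference between GBS and GS exceeded its difference between GB and Control by 1.41 on the log2 scale. GBS and GS both carry the Cre, while Control lacks it. In GB against Control, the Ctnnb1(ex3) allele and the Cre therefore cannot be told apart. The test was limma's interaction term, with an adjusted p of 0.0125 over all genes, and over 23 alternatives the adjusted p ranged from 0.000172 to 0.0721. The call was lost with the replicate block, without Control replicate 1, Control replicate 3 or GS replicate 2, and at a limit of 0.01. The 3 GBS arrays lay above the 3 GS arrays and the 3 GB arrays above the 3 Control arrays. Genotype and the tissue sampled cannot be told apart in GBS.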

How the results depend on the processing

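Counts of the 9 factors higher in GBS than in Control stayed within 1.5 times of 4 in every alternative. The total of all genes higher in that comparison was 631 without GBS replicate 2 and 3483 with array weights, beside 1556 in the main fit. With array weights, which ran from 0.0818 (GB replicate 2) to 3.78 (GS replicate 2), GS against Control gave 1 higher and 3 lower, GB against Control 2 higher, GBS against GS 5 higher, GS against GB 3 lower, the interaction 2 higher and the F test 9. Over all genes the same weights called 3422 higher and 2939 lower in GS against Control, 84 higher in GB against Control, 1283 higher in GBS against GS, 435 lower in GS against GB, 387 higher in the interaction and 7612 in the F test, of 14195. Fitting the compared arrays alone gave 1 factor higher in GBS than in GB, beside 77 of all genes. Leaving out 3 arrays together gave 5 factors and 4907 genes in the F test. At an adjusted p under 0.01 the interaction called 0. With 1 array left out, the count lower in GS than in GB ran from 0 to 1 (1 without GBS replicate 2, Emx2, beside 4 of all genes). The count higher in the interaction ran from 0 to 1, beside 14 to 56 of all genes.

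The sign of the GBS difference from Control turned for Emx1 (0.062) and Nr2f1 (-0.023) with the receptor-gene covariate, and for Dmrta2 with that covariate (0.18), with centred arrays (0.0015) and without GBS replicate 3 (0.020, with the other single arrays left out down to -0.13). The causes were not tested.

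Replicate numbers do not pair the samples: over 18 pairs with the same number, the correlation of deviations from the genotype means ran from -0.818 to 0.739 and was over 0.1 in 7. With the replicate block, the interaction called 0 factors higher, beside 16 of all genes. In the same fit 3 factors were higher in GBS than in Control (993 genes), 2 than in GS (304 genes) and 2 than in GB (654 genes). With 3 arrays per genotype, a factor that was not called may still differ by an amount within its interval.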
